A study of Arabidopsis thaliana with 8 samples.

Results

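Transcripts at least doubled in fum were 38 of the 22746 probe sets (short groups of oligonucleotides that each report on a transcript) measured in Arabidopsis thaliana cell cultures, or 0.167% of them. Each member had a mean log2 signal at least 1 higher on the fum arrays than on the met arrays, no overlap between the groups (its lowest fum value above its highest met value), and a mean fum signal of at least 50. The conditions were met by 46 probe sets (0.202%), and non-overlap alone with fum higher by 4.42%. A further step left out 9 probe sets by name, 8 of which met the conditions. Members were thus chosen by the fum and met signals themselves, and their differences are given as a description, with no test.

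The cultures were of the Ler background, stock NW20, and were kept in an incubator at 24 °C. Their medium was that of Murashige and Skoog with sucrose, the auxin NAA and the cytokinin Kinetin, and all 8 samples shared it. The titles name 4 arrays fum and 4 arrays met, numbered 1 to 4 within each group. The labels expand neither name, give no time or dose and name no control. The labels do not say whether same-group arrays stem from different cultures, so every p-value here reflects the variation among these arrays alone, and that variation may be technical. Total RNA was labelled with biotin and hybridised to 1 array per sample, and the values are MAS5 signals on a linear scale.

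The series title concerns genes that regulate programmed cell death in plants. Programmed cell death is a controlled dismantling of the cell, used in development and in defence. Plants lack the caspases of animals, and dying plant cells rely on vacuolar and secreted hydrolases, among them several classes of protease. Stress and defence responses in plants also draw on secreted peptides, receptor-linked signalling, zinc finger transcription factors and the conjugation and transport of small molecules.

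The annotation paired 12 of the 38 members with 1 gene, 3 with several genes and 23 with no gene, and members of the last kinds are called by their probe set IDs. Among all probe sets it paired 13513 with 1 gene, 503 with several and 8730 with none. The 12 named members had folds (ratios of geometric mean signals, fum over met) between 2.004 and 3.21. Means given with an SD are arithmetic, so their ratio can differ from the fold. The largest folds lay among members with no gene, up to 8.78. Over all 38 the median log2 difference was 1.24, a fold of 2.36, beside -0.0021 over the 13647 probe sets bright enough to be tested and 0.031 over all 22746. Only 2 members were at least 4-fold higher, 7 were at least 3-fold higher, and 23 lay below 2.5-fold. Mean fum signals ran from 50.4 to 928 with a median of 145.6, and mean met signals from 10.5 to 419 with a median of 61.9. In fum 6 members averaged at least 500, 19 from 100 to under 500, and 13 under 100.

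**Figure D1:**
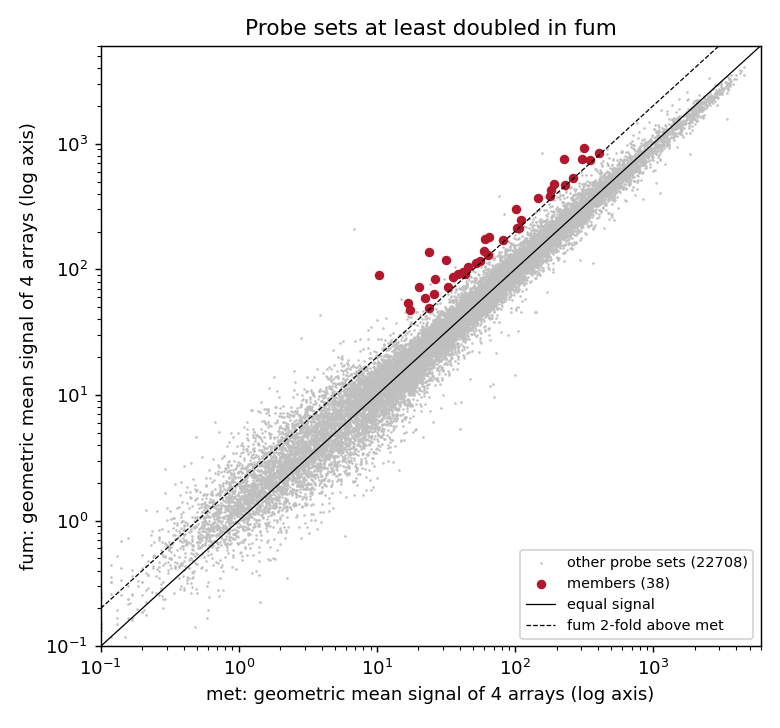
Geometric mean signal of each probe set on the 4 fum arrays (vertical, log axis) against the 4 met arrays (horizontal, log axis), with the 38 members in red and the other 22708 probe sets in grey. The solid line marks equal signal and the dashed line a 2-fold higher fum signal, on or above which all members lie by the rule, most of them close to it and one, 265221_s_at, far above at 8.78-fold.

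AT4G28460, AT3G48450 and HHP2 belong to different gene families and are set out together here only for convenience. A part in signalling was not tested for any of them. AT4G28460 encodes the precursor of a small secreted peptide that microbial patterns induce. Its signal was 336, 269.8, 557 and 369.8 on fum replicates 1 to 4, and 184.3, 249.8, 80.3 and 124.7 on met replicates 1 to 4. The groups nearly touched, since fum replicate 2 was only 1.08 times met replicate 2, although the fold was 2.52. The arithmetic means were 383 ± 123 in fum and 159.8 ± 73.6 in met (SD, n = 4 each). AT3G48450 belongs to the family of RIN4, a plasma membrane protein guarded by immune receptors. It read 136.7, 150.5, 177.2 and 108.4 on the fum arrays and 78.6, 76.9, 42.3 and 51.2 on the met arrays. Its fold was 2.34 (means 143.2 ± 28.7 in fum and 62.25 ± 18.3 in met), and met replicates 1 and 2 were the high met arrays. HHP2 encodes a heptahelical membrane protein related to the adiponectin and progestin receptors of animals. It stood at 136.6, 85.9, 168.2 and 146.4 in fum and at 60.8, 66.7, 71.7 and 55.1 in met. Fum replicate 2 lay well below the other fum arrays and at 1.20 times the highest met array, with means of 134.3 ± 34.8 in fum and 63.6 ± 7.20 in met and a fold of 2.06.

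AT1G50590 had the highest fold of the named genes. It encodes a protein of the pirin family, which belongs to the cupins. Its signal was 55.6, 75.0, 116.0 and 105.2 on the fum arrays and 23.9, 30.7, 24.4 and 26.7 on the met arrays. The fum values spread about a mean of 87.95 ± 27.7 and the met values kept close to 26.4 ± 3.10 (SD, n = 4 each). The fold was 3.21. AT2G28710, a zinc finger transcription factor gene of the C2H2 type, had 162.9, 153.0, 167.6 and 226.1 in fum and 46.3, 81.5, 64.5 and 53.9 in met. Fum replicate 4 stood above the other fum arrays and every fum array was at least 1.88 times the highest met array. The fold was 2.91, with means of 177.4 ± 33.0 in fum and 61.55 ± 15.3 in met.

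Among the hydrolases, the aspartic protease family gene AT1G44130 was the brightest named member. It read 663.5, 700.0, 868 and 747 on the fum arrays and 276.8, 475, 316 and 353 on the met arrays. Fum replicate 3 and met replicate 2 were the highest of their groups. The means were 745 ± 88.9 in fum and 355 ± 85.7 in met, and the fold was 2.13. AT5G03610 encodes a GDSL lipase, one of a large family of plant esterases. It had 524, 484, 584 and 530.5 in fum and 253, 312, 240.5 and 251 in met. The groups were tight and well apart, at 531 ± 40.8 in fum and 264 ± 32.5 in met, although at 2.01-fold the gene lay at the edge of the rule. AT2G39400 encodes an alpha/beta hydrolase similar to monoacylglycerol lipases. Its signal was 328, 316.5, 469 and 445 in fum and 168.6, 254, 148.0 and 161.4 in met. Met replicate 2 was the only met array above 168.6. The means were 389.6 ± 78.7 in fum and 183.1 ± 48.3 in met, and the fold was 2.14.

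Transport and membrane proteins were represented by SFP1 and AT1G63220. SFP1 encodes a sugar transporter of the family named after ERD6. It read 420, 377, 540 and 396 on the fum arrays and 191.7, 275, 142.9 and 146.7 on the met arrays. Its means were 433 ± 73.4 in fum and 189.1 ± 61.5 in met, its fold was 2.35, and met replicate 2 again stood nearest to the fum arrays. AT1G63220 encodes a protein with a C2 domain, a fold that binds lipids in a calcium-dependent way. It had 194.8, 184.2, 335 and 305 in fum and 116.4, 139.0, 101.4 and 92.9 in met. The fum arrays fell into a low pair (replicates 1 and 2) and a high pair (replicates 3 and 4), and the fold was 2.21 (means 254.7 ± 76.4 in fum and 112.4 ± 20.2 in met).

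The remaining named members were AT1G08940 and AT4G29520. AT1G08940, of the phosphoglycerate mutase family, had 464.5, 382, 623 and 438 in fum and 270.4, 293, 170.3 and 205.0 in met. Met replicates 1 and 2 were the high met arrays. The means were 477 ± 103 in fum and 234.6 ± 56.8 in met, and the fold was 2.05. AT4G29520 was the member nearest the threshold. It read 210.5, 207.5, 238.6 and 202.4 in fum and 178.6, 113.9, 72.9 and 88.2 in met. The fum values hardly varied, whereas met replicate 1 stood far above the other met arrays and close to fum (means 214.8 ± 16.2 in fum and 113.4 ± 46.6 in met, fold 2.004). By these arithmetic means AT4G29520 fell short of a doubling.

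**Figure D2:**
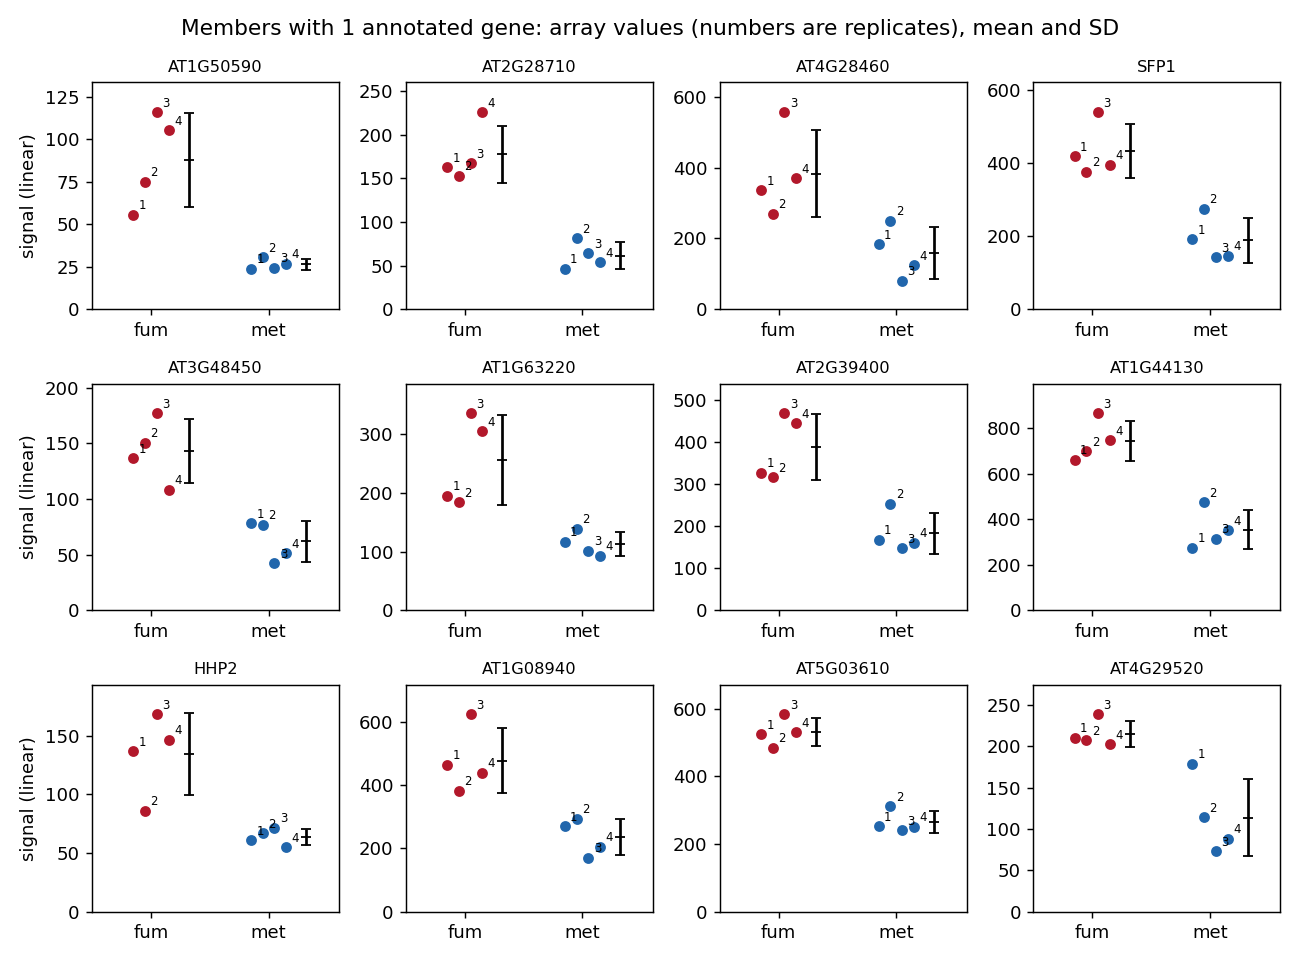
Signal (linear vertical axis from 0) of the 12 members with 1 annotated gene on the 4 fum arrays (red, left) and the 4 met arrays (blue, right), with replicate numbers beside the points and the mean ± SD in black. Fum replicate 3 is the highest fum array in 11 of the 12 panels and met replicate 2 the highest met array in 9.

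The 5 unannotated members with the largest folds were each given in full. Probe set 265221_s_at had 78.9, 81.1, 109.9 and 95.4 signal units in fum and 14.2, 10.3, 9.3 and 8.3 in met. This was the widest separation of all members, with every fum array at least 5.56 times the highest met array and means of 91.3 ± 14.4 in fum and 10.5 ± 2.58 in met. Probe set 253505_at read 105.5, 88.0, 247.8 and 150.7 in fum and 20.5, 72.9, 10.2 and 20.9 in met. Its 5.74-fold difference came with wide spread in both groups, 148.0 ± 71.6 in fum and 31.1 ± 28.3 in met, and the lowest fum array was 1.21 times met replicate 2. Probe set 265572_at had 91.0, 120.5, 128.1 and 141.8 in fum and 31.3, 38.8, 37.5 and 22.2 in met, a 3.75-fold difference with every fum array at least 2.35 times the highest met array. Probe set 245447_at read 52.8, 103.1, 73.3 and 70 in fum and 10.2, 35.4, 19.4 and 24.1 in met. At 3.59-fold it was high on fum replicate 2, which was rarely the highest fum array among members. Probe set 256933_at, a bright member, had 598, 602, 959 and 916.5 in fum and 112.4, 361.5, 237.7 and 264.7 in met, a 3.34-fold difference in which the fum arrays again formed a low and a high pair.

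The other 18 unannotated members had folds between 2.06 and 3.21, with fum means from 50.4 to 928 and met means from 18.5 to 337. The brightest of all members was 265260_at, which averaged 928 ± 155 on fum arrays and 337 ± 145 on met arrays. The 3 members whose probe set matched several genes were 245866_s_at, 264365_s_at and 253268_s_at, with folds of 2.52, 2.08 and 2.04, and their signal cannot be assigned to any 1 gene.

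**Figure D3:**
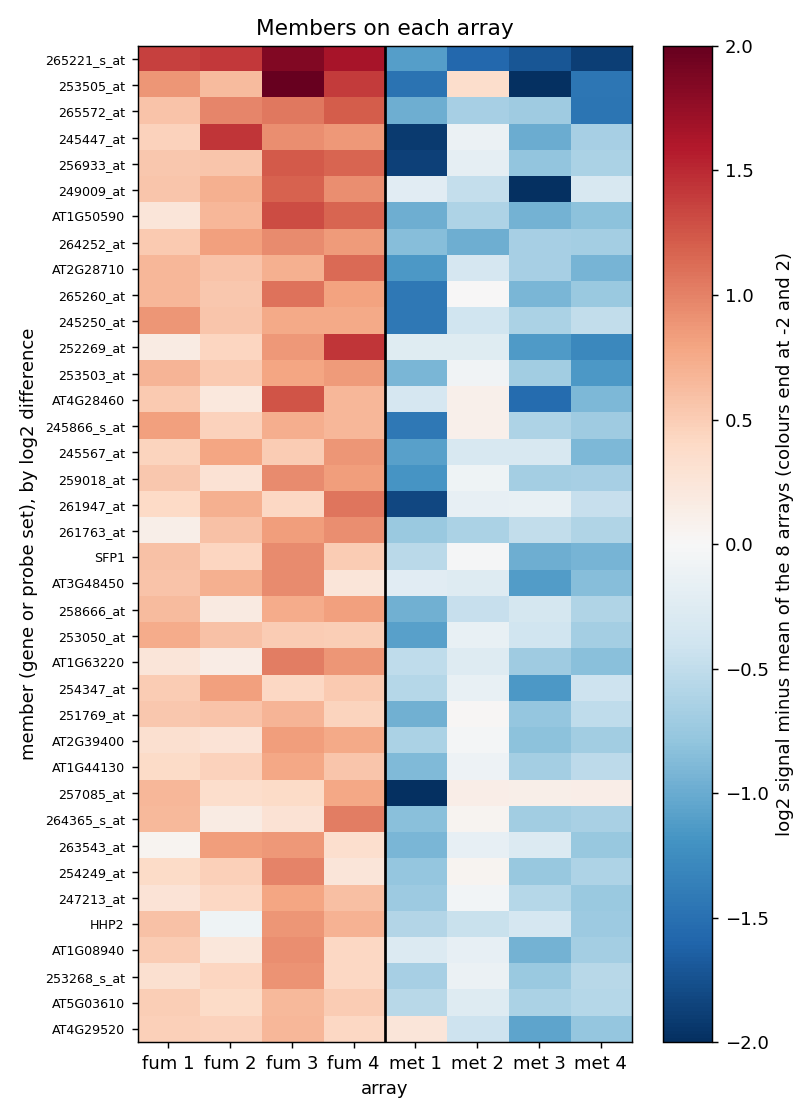
Log2 signal of the 38 members (rows, by falling log2 difference) on the 8 arrays (columns, fum left of the line, met right of it), each as the difference from the member's mean over the 8 arrays. The fum columns are mostly red, which follows from the rule, fum replicate 3 is the reddest of them in 23 rows, and met replicate 2 is the palest met column in most rows.

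The lower group limited how well some folds were measured. Met means lay below a signal of 21.1 (the 40th percentile of mean signal, used as the filter for testing) in 3 members, and at least 1 met array did so in 9. With 16 added to every signal, which damps differences of dim probe sets, 21 of the 38 were still at least doubled. The fold of 265221_s_at then became 4.03, that of AT1G50590 2.39 and that of AT2G28710 2.504. The named genes AT5G03610, AT1G08940, HHP2 and AT4G29520 fell under 2, at 1.96, 1.98, 1.85 and 1.86. Separation of the groups, which the rule itself required, also varied among members and is given as a description. The lowest fum array was at least 1.5 times the highest met array in 13 members and at least 2 times in 3, and in 2, AT4G28460 and 264365_s_at, it was less than 1.1 times.

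The threshold divided a continuous range. Just inside it stood AT4G29520, AT5G03610 and 253268_s_at, with log2 differences of 1.003, 1.01 and 1.03. Just outside, among probe sets that met the other conditions, stood 264685_at, AT1G75280 and AT5G38900, with 0.993, 0.991 and 0.985. AT1G75280 had 255.5 ± 49.9 in fum and 126.8 ± 10.5 in met, and AT5G38900 had 488 ± 118 in fum and 249.6 ± 80.2 in met (SD, n = 4 each).

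Single arrays were next set against the mean of their own group. The rule bounds the lowest fum and the highest met value of each member, so these deviations are not independent of it and are a description, and the tested probe sets given beside them were not selected in that way. On met replicate 2 the members stood above the other met arrays. It was the highest met array for 27 of the 38 members (71.1%), against 22.1% of the 13647 tested probe sets, and its median deviation over members was 0.43 on the log2 scale, against -0.0091 over the tested probe sets. In linear terms the signal on met replicate 2 was a median of 1.49 times the geometric mean of the other met arrays over members and 0.992 times over the tested probe sets. A ratio of at least 1.5 was reached by 18 members (47.4%) and by 2.59% of the tested probe sets. The highest ratios were 4.46 for 253505_at, 2.10 for 245447_at, 2.05 for 265260_at and 2.04 for AT4G28460. It lay below 1 in 3 members, at 0.842 for 264252_at, 0.982 for 261763_at and 0.999 for 265221_s_at.

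The mirror-image rule, which selects on the same values, gave 27 probe sets at least halved in fum with no overlap and a met mean of at least 50. For these, met replicate 2 was the lowest met array in 12 (44.4%, against 26.3% of the tested probe sets) and the highest for 0, and their median deviation there was -0.14. On fum replicate 3 the members stood high, with a median deviation of 0.22, and it was the highest fum array for 23 of 38 (60.5%, against 28.4% of the tested probe sets). Fum replicates 1 and 2 were the lowest fum array for 15 and 17 members (39.5% and 44.7%, against 22.0% and 29.7% of the tested probe sets). Met replicate 1 was the lowest met array for 19 members (50%, against 32.8% of the tested probe sets), 16 of them among the 26 without a single gene and 3 among the 12 named. Met replicate 3 was the lowest for 7 of the 12 named members, AT4G28460, SFP1, AT3G48450, AT2G39400, AT1G08940, AT5G03610 and AT4G29520, and for 4 of the other 26. It was the lowest for 28.9% of all members, against 22.4% of the tested probe sets. The split into named and other members follows the annotation and was not tested.

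**Figure D4:**
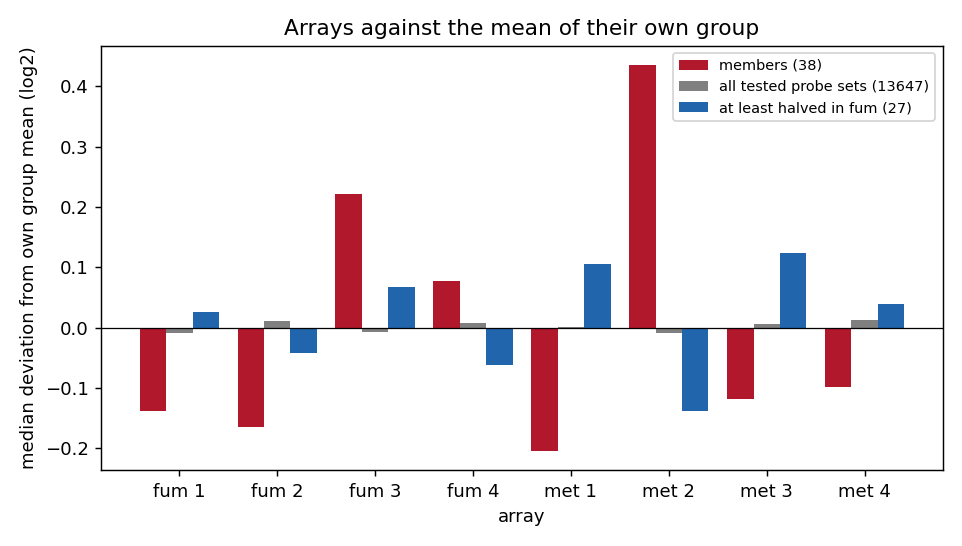
Median deviation of each array (horizontal) from the mean of its own group, in log2 units (vertical), over the 38 members (red), the 13647 tested probe sets (grey) and the 27 probe sets at least halved in fum (blue). The members stand at 0.43 on met replicate 2 and at 0.22 on fum replicate 3, the tested probe sets lie near 0 on every array, and the halved probe sets are lowest on met replicate 2 at -0.14.

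Control signals of the same arrays are set beside this. Signal of the 25S ribosomal RNA control was lowest on fum replicate 3 (157.6), followed by met replicate 1 (824) and met replicate 2 (1305), and was at least 2806 on the other 5 arrays. The ratio of 3′ to 5′ actin control signal was 12.0 on met replicate 1 and at most 2.39 elsewhere. The same ratios for GAPDH and ubiquitin were also highest on met replicate 1, at 1.80 and 2.94, and at most 1.42 and 1.73 elsewhere. Of 6 such measures none separated fum from met (lowest exact two-sided permutation p = 0.0857, 0.514 after Benjamini-Hochberg adjustment), in a design whose smallest possible p is 0.0286. That lowest p belonged to the hybridization controls. Their geometric mean read 186.3, 182.2, 110.8 and 122.0 on fum replicates 1 to 4 and 286.0, 179.2, 286.0 and 265.1 on met replicates 1 to 4. The part of these 6 measures in the members' values was not tested. The members' summed signal ran from 8674 to 11771 on the fum arrays and from 3549 to 5855 on the met arrays, with met replicate 2 the highest met array. Array medians of all probe sets ran from 33.1 to 41.45.

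Leaving out arrays in turn moved the membership. The counts reuse the values that chose the members, and leaving out an array cannot undo the non-overlap, so they are a description only. Met replicate 2 lay below the geometric mean of the other met arrays in only 3 members, so leaving it out raises most folds. Without met replicate 2 all 38 members still met the rule, the median fold became 2.61, and 30 further probe sets met it, 68 in all. Without fum replicate 3, 28 of the 38 did so, and without met replicate 1, 27. Over the 8 omissions 21 members met the rule every time, among them 6 of the 12 named genes (AT1G50590, AT2G28710, AT4G28460, SFP1, AT3G48450 and AT2G39400). Over these omissions and the 4 other settings of scale and floor, 16 members met the rule throughout, the 5 named genes among them being AT1G50590, AT2G28710, SFP1, AT3G48450 and AT2G39400.

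**Figure D5:**
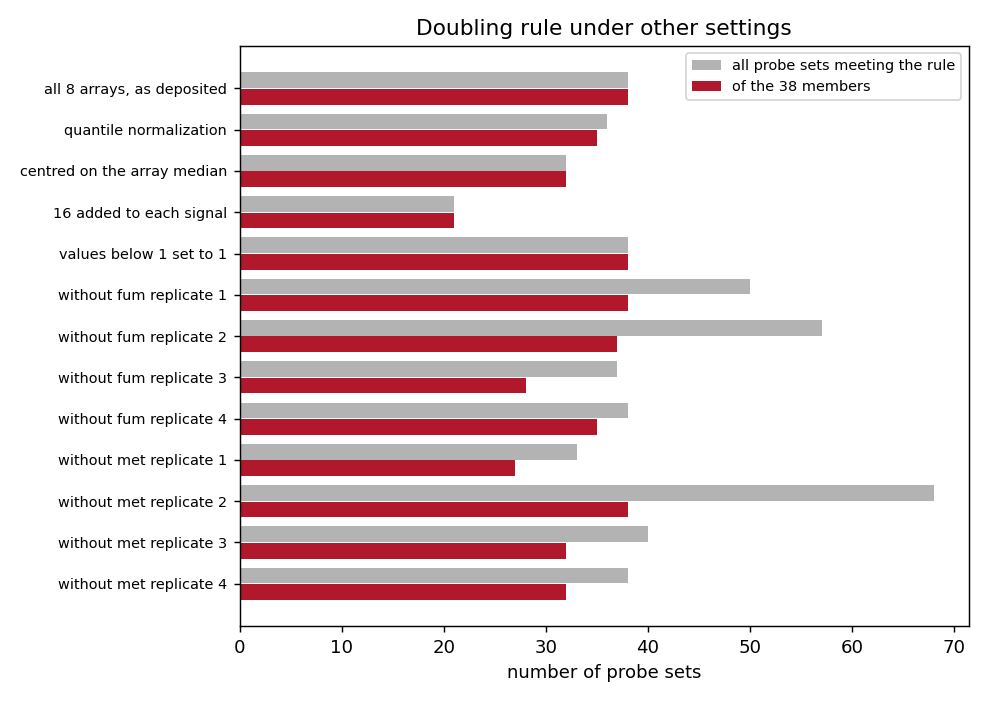
Number of probe sets (horizontal, from 0) that met the rule on all 8 arrays as deposited and under 12 other settings, over all probe sets (grey) and over the 38 members (red). The grey bar is longest without met replicate 2, at 68, and both bars are shortest with 16 added to each signal, at 21.

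In the fit across all 13647 tested probe sets, limma called 200 higher in fum at an adjusted p under 0.05, or 1.47%, and 151 lower, or 1.11%, together 2.57%. It called 33 of the 38 members, all of which were tested. Since the same contrast chose the members, nothing is read from that count.

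The members were set beside wider families and pathways, of which 1039 loci were listed. Only 188 of these had their own probe set in the annotation and 90 were tested, and none was a member. Of the 90, 10 rose and 1 fell with limma, or 11.1% and 1.11%, beside 1.41% and 0.779% of all 7444 tested genes. The lists were drawn up with earlier results known, and 5 of the 10 (AT1G24140, AT1G26380, GSTU25, CYP71B22 and CYP71B24) are among the probe sets that the rule left out by name. The other 5 that rose had a smaller fold or a dimmer fum signal than the rule asks for. UGT73B5 and UGT73B4, glycosyltransferases that attach glucose to small molecules, had folds of 1.82 and 1.72 (limma adjusted p = 0.0131 and 0.0429). IGPS (AT2G04400), an enzyme of tryptophan synthesis, had a fold of 1.56, and the chaperone gene ATERDJ3B of the endoplasmic reticulum 1.42 (adjusted p = 0.0467 and 0.0253). The beta-glucosidase gene BGLU25 had a fold of 2.38 (adjusted p = 0.0481) but averaged 43.2 ± 11.7 in fum, under the 50 that the rule asks for, against 18.3 ± 6.36 in met. UGT84A1, a glucosyltransferase of phenylpropanoids, fell, with signals of 225.8 ± 35.1 on fum arrays and 389 ± 80.2 on met arrays (log2 -0.77, limma adjusted p = 0.039). These calls were fragile: on 7 arrays UGT73B5 did not pass without fum replicate 4, ATERDJ3B passed in 3 of the 8 omissions, IGPS, UGT73B4 and BGLU25 in 2 and UGT84A1 in 1 (highest adjusted p 0.161, for BGLU25), and none of the 6 passed with the replicate number as a block (lowest adjusted p 0.0707, for UGT73B5).

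By list, 1 gene rose in each of these sets of tested genes: 2 matrix metalloproteinases, 8 berberine bridge enzyme genes, 1 tryptophan synthesis gene, 3 endoplasmic reticulum stress genes, 5 glutathione transferases and 11 beta-glucosidases, while 2 of 4 cytochromes P450 rose. Of 17 UDP-glycosyltransferases 2 rose and 1 fell. The P450, metalloproteinase, berberine bridge enzyme and glutathione transferase genes that rose are those that the rule left out by name. These counts do not describe whole families, since only 4 of the 236 listed P450 loci were tested. Of the 5 tested glutathione transferases 1 had a higher mean in fum, with a median log2 difference of -0.29 over the 5. No gene passed with limma in the other 15 lists with a tested gene, where 11 of 39 genes (28.2%) had an unadjusted p under 0.05, beside 1233 of all 7444 tested genes (16.6%). Among them were 5 WRKY transcription factors, 4 mitochondrial dysfunction markers, 3 vacuolar processing enzymes, 2 salicylic acid genes, 4 xyloglucan endotransglucosylases and 6 U-box ubiquitin ligases. The remaining 9 lists, metacaspases and jasmonate genes among them, had no tested gene. In 3 housekeeping genes the log2 difference was -0.000087 for PEX4, -0.070 for AT4G34270 and -0.26 for AT2G28390 (limma adjusted p of at least 0.63).

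Markers of other cells could be read only in part, since the seed and xylem lists had no annotated probe set and no root hair marker was tested. RCA, the only tested marker of photosynthetic cells, averaged 423 ± 33.4 on fum arrays and 518 ± 50.6 on met arrays. AUR1, the only tested marker of dividing cells, averaged 111.2 ± 14.4 on fum arrays and 122.2 ± 7.03 on met arrays. Neither passed (limma adjusted p = 0.155 and 0.581). In such bulk RNA, fewer cells of a type and less RNA per cell cannot be told apart.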

How the data were processed

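The authors deposited 1 table of 22810 probe sets by 8 arrays. Its values are linear signal intensities, and MAS5 is named, with no version, per the submitters' processing notes; the deposited intensities have similar trimmed means on all arrays. Background settings and genome build are not given in the sources used here. Members, lists and tests were chosen with earlier results of these data known. The 64 control probe sets were left out of the rule and the fit, and 93 values of 0 were set to 0.1 before log2. The comparison used limma 3.58.1 under R 4.3.3 (lmFit, eBayes with an intensity trend, two-sided, Benjamini-Hochberg) over the 13647 probe sets above the 40th percentile of mean log2 signal. In 10 runs on simulated arrays with these 13647 probe sets, of which 200 were changed, it recovered 76.8% of log2 changes of 1, with 4.15% false calls. Symbols come from the supplied probe annotation, updated by gene identifier through RefSeq genes of TAIR10.1 (13436 of 13513 matched); a gene with several probe sets is represented by its brightest. No promoters or proteins were used here, and the gene order in RefSeq served only to find neighbouring genes. All 12 members with 1 gene are named with every value, as are the 5 unannotated members of largest fold. List genes are named where they passed, at most 3 per list. Alternatives covered scaling, an added signal, the floor, the filter, the fit, the replicate number as a block and each array left out. Analyses by single array, of halved probe sets and of relatives were added after values were seen.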

Additional observations from a re-analysis of the deposited data

Results flagged for a closer look

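In each member, each group of 4 arrays was searched for a value whose gap to the nearest other array exceeded 0.829 of the group's range. Of 76 groups 4 had one, and chance alone gives about 1 in 20 among independent, unselected groups. The members share the same 8 arrays and were chosen by these values, so that rate is only a rough guide. All 4 flagged groups were met groups. In 3 the far array was met replicate 2, which read 72.9 for 253505_at (other met arrays 10.2 to 20.9), 611.7 for 264365_s_at (329 to 375) and 122.7 for 254249_at (69.3 to 76.7). In the fourth, 257085_at, met replicate 1 read 10.8 and the other met arrays 68.9 to 69.4, beside fum values from 80.6 to 108.0. Its fold of 2.12 thus rests on met replicate 1, without which it did not meet the rule.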

How the results depend on the processing

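The rule was met by 36 probe sets after quantile normalization, 32 after centring on the array median and 38 with a floor of 1, but by 21 with 16 added to each signal, all of them among the 38 members. It was met by 10 at a log2 difference of at least 1.5, 25 at a fum mean of at least 100 and 61 at a fum mean of at least 25. With 1 array left out the number ranged from 33 to 68, of which 27 to 38 were listed members, and the members' median log2 difference from 1.17 to 1.39. The limma counts depended more on the setting. Against 351 probe sets and 11 list genes, 116 and 4 passed after centring on the median, 164 and 5 without the intensity trend, and 112 to 416 and 2 to 12 with 1 array left out (112 without fum replicate 4, 151 and 154 without met replicates 4 and 3, 167 and 175 without fum replicates 3 and 1; in the same order 2, 3, 6, 4 and 6 list genes). Of the 38 members 33 passed, beside 2.57% of all 13647 tested probe sets, and 18 to 34 with 1 array left out, with 18 without fum replicate 4. With the replicate number as a block, 115 probe sets, 22 members and 3 list genes passed. Since the same contrast chose the members, nothing is read from the counts of members. The labels do not say whether same-numbered arrays share more than a number. Their deviations correlated at -0.17, -0.30, -0.47 and 0.14 across the tested probe sets, which cannot settle whether they were paired. The cause of these changes was not tested. The number of arrays and the dim met signals of some members limit the folds.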

Other observations

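Relatives and neighbours of the named members were looked up after the members' values were seen, and their values are a description. PRN, a pirin gene related to AT1G50590, averaged 451.5 ± 66.5 on fum arrays and 567 ± 67.1 on met arrays (SD, n = 4 each, log2 -0.33). Its groups nearly touched, with fum values up to 508.2 and met values from 517.5. SFP2, a gene next to SFP1, was dim, at 18.9 ± 5.25 in fum and 23.0 ± 8.55 in met. AT5G27340, the other gene next to SFP1, was also dim and not tested. Its log2 difference was 1.14, at mean signals of 16.95 in fum and 11.3 in met. AT2G39410, next to AT2G39400, had a log2 difference of 1.32 at signals of 12.2 ± 7.08 in fum and 5.47 ± 4.43 in met, below the filter signal and with overlapping groups. AT2G39420 stood at 26.7 ± 6.11 in fum and 27.97 ± 3.98 in met. No 2 named members lay within 5 genes of each other. Of the 24 genes flanking the 12 named members, 15 had a probe set and 7 were tested, with log2 differences from -0.24 to 0.39. Of these 7, limma called 0 at an adjusted p under 0.05, and 0 had an unadjusted p under 0.05.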
